A study of Homo sapiens with 4 samples.

Results

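TXNIP, the genes of the arrestin domain containing proteins ARRDC1, ARRDC2, ARRDC3 and ARRDC4, and TXN, which encodes thioredoxin, were described in MDA-MB-231 Fluc cells. The members were taken by gene symbol, and all 6 were found among the 13957 genes of the deposited table. MDA-MB-231 is a triple negative breast cancer cell line, and the Fluc derivative carries an inserted luciferase gene for imaging. The RNA-seq experiment held 4 samples, 2 from cells given 50 μM cordycepin for 2 h and 2 from cells given the vehicle DMSO, all from the same luciferase line. Cordycepin is 3' deoxyadenosine, an adenosine analogue that is phosphorylated in cells. Its triphosphate can end RNA chains in polyadenylation, but the study states that total pre-mRNA synthesis in intact cells is not ended this way.

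CPM are counts scaled by the size of the library. For each gene the table gives 1 value named logCPM, read here as the mean log2 CPM over the libraries of both treatments. It gives no level per library and none per treatment, so neither the spread between duplicates nor the depth of a library can be given, and cordycepin and DMSO could not be tested against each other from sample values. The comparison of the treatments that the authors made themselves is also in the table and was left out by choice. The levels below therefore describe the cell line across both treatments. For a gene whose level differs between the treatments, such a mean is the level in neither of them.

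Thioredoxin is a small protein that reduces disulphide bonds in other proteins, and is itself kept reduced by thioredoxin reductase with electrons from NADPH. TXNIP, thioredoxin interacting protein, binds reduced thioredoxin through a disulphide bond and also limits glucose uptake by promoting the internalisation of glucose transporters. TXNIP and the ARRDC proteins form the alpha-arrestin family, which are adaptors that link membrane proteins to ubiquitin ligases of the NEDD4 family. TXNIP and ARRDC4 are known targets of the glucose-sensing transcription factor MondoA, encoded by MLXIP, with its partner MLX.

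Because cordycepin is an inhibitor of polyadenylation, the 3' ends of the members were read first. A poly(A) signal, either AATAAA or the variant ATTAAA, was searched for in the last 50 bases of the canonical GENCODE transcript of each member. It was found in 5 of 6 members, a count that was not set against all transcripts. The windows of 30 bases that carry it are shown, with the signal nearest the end in capitals. Each sequence is read 5′ to 3′ on the strand of its gene (build GRCh38).

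TXNIP: gtaaaaaatgaaAATAAAgtttttttaatg

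ARRDC1: acaactcctgtaAATAAAacactttatttg

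ARRDC3: ttaaattaaactATTAAActctattttaag

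ARRDC4: gttcgttttattAATAAAattattacacta

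TXN: ggcaatgcaggtAATAAAgtagtatgttgt

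The TXNIP window lies on the minus strand at chr1:145992445-145992474, and the signal ends 22 bases before the end of the transcript. The ARRDC1 window is on the plus strand at chr9:137615327-137615356, with 16 bases after the signal. The ARRDC3 window (minus strand, chr5:91368634-91368663) holds ATTAAA in place of AATAAA, 15 bases from the end. A further ATTAAA lies just upstream in the same window and is left in lower case. The ARRDC4 window (plus strand, chr15:97973803-97973832) has 13 bases after the signal, and that of TXN (minus strand, chr9:110243819-110243848) has 21. In ARRDC2 neither form was found in the last 50 bases of the canonical transcript, which says only that these letters are not in that window.

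The 3' UTRs differed widely in length between the members. The canonical ARRDC3 transcript of 4239 bases had the longest 3' UTR of the 6, with 2769 bases, or 65.3% of the transcript. ARRDC4 followed with 2646 bases (65.1% of 4062 bases), TXNIP with 1416 (48.7% of 2905) and ARRDC2 with 1136 (45.4% of 2501). The shortest were those of TXN, 347 bases (47.1% of 737), and of ARRDC1, 222 bases (14.3% of 1556). The coding regions of the alpha-arrestins were alike in size, from 1173 bases in TXNIP to 1299 in ARRDC1, and each of these 5 transcripts had 8 exons, whereas the TXN transcript had 5 exons and 315 coding bases.

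**Figure D1:**
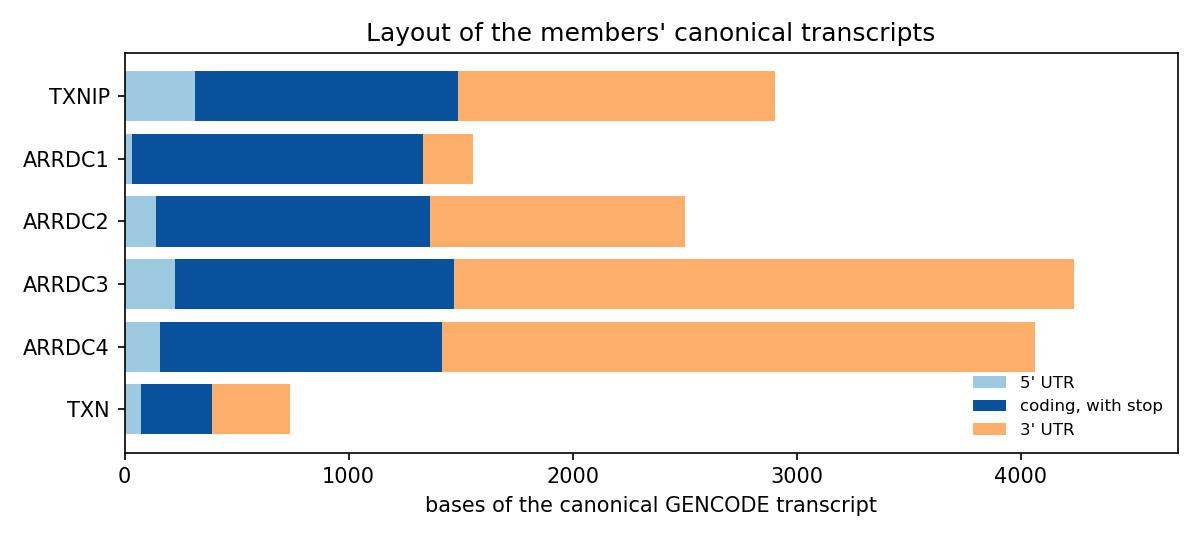
Bars give the bases of the 5' UTR, the coding region with its stop codon and the 3' UTR of the canonical GENCODE transcript of each member. The coding parts of the alpha-arrestins are close in length, and the 3' UTR ranges from 222 bases in ARRDC1 to 2769 in ARRDC3.

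The 3' UTRs were then searched for ATTTA, the core of AU-rich elements that destabilise many short-lived mRNAs. ARRDC3 held 8 copies and ARRDC4 held 7, which is 2.89 and 2.65 copies per kb of 3' UTR. TXN held 3 copies in its short 3' UTR (8.65 per kb), TXNIP held 1 (0.706 per kb), and ARRDC1 and ARRDC2 held 0. How often ATTTA occurs in the 3' UTRs of other genes was not counted, and an effect on mRNA stability was not tested. The longer nonamer TTATTTATT was in 0 of the 6 canonical 3' UTRs. Base composition also split the family. The 3' UTRs of ARRDC1 and ARRDC2 were 64.4% and 54.3% G and C, compared with 41.0% in TXNIP, 37.0% in ARRDC4, 34.0% in ARRDC3 and 27.7% in TXN.

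To see how the level of each member compares with that of the others, the mean CPM, taken out of the log scale, was divided by the length of the merged exons of the gene in kb, and the result is given as log2 CPM per kb. By this measure TXN was the highest of the members and ARRDC4 the lowest, 7.47 apart on the log2 scale. The order was TXN, TXNIP, ARRDC1, ARRDC3, ARRDC2 and ARRDC4. As the spread between libraries is not known, whether neighbours in this order differ beyond it cannot be said. The order of ARRDC3 and ARRDC2, 0.62 apart on the log2 scale, turned when the length of the canonical transcript was used, with 2.23 for ARRDC3 and 2.27 for ARRDC2.

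TXN (ENSG00000136810, chromosome 9, 110243810 to 110256507, minus strand, GRCh38) had a mean level of 8.32 log2 CPM, or 319 CPM when taken out of the log scale. Its merged exons span 1010 bases, which gives 8.30 log2 CPM per kb, or 316 CPM per kb. Only 119 of the 13922 genes with a length in GENCODE were higher per kb, placing TXN at percentile 99.1. Thioredoxin mRNA was thus among the most abundant in these cells per length. The table also holds 3 processed pseudogenes of TXN, named TXNP4, TXNP5 and TXNP6, whose sequences matched the TXN transcript at 93.5%, 92.3% and 94.8% of aligned bases. Their mean levels were 6.87, 3.37 and 26.2 CPM, so reads may have been divided between these genes and TXN, depending on how reads that map to several places were counted, which the methods of the study do not state.

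TXNIP (ENSG00000265972, chromosome 1, 145992435 to 145996579, minus strand), the inhibitor of thioredoxin, had a mean level of 7.71 log2 CPM, or 210 CPM. Per kb this was 5.86 on the log2 scale (58.3 CPM per kb), at percentile 93.9 of the genes with a length. TXNIP thus was well above the median of all genes in the table, 2.39 log2 CPM per kb. The mRNA of TXN was 2.44 higher on the log2 scale per kb than that of its inhibitor, a ratio of 5.43. TXNIP in turn was 3.32 times the sum of the ARRDC genes, which came to 17.5 CPM per kb, and made up 76.9% of the summed mean level per kb of the 5 alpha-arrestin genes. With canonical transcript lengths in place of merged exons, the ratio was 2.15 and the share 68.3%.

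ARRDC1 (ENSG00000197070, chromosome 9, 137605685 to 137615360, plus strand) encodes an alpha-arrestin known for recruiting the sorting protein TSG101 to the plasma membrane, where vesicles bud. It had a mean level of 5.11 log2 CPM (34.7 CPM) and 3.19 log2 CPM per kb (9.14 CPM per kb), at percentile 64.5. It was the only one of the ARRDC genes above the median of all genes per kb of merged exons. This value depends on the isoform, since GENCODE lists 12 ARRDC1 transcripts with 3790 merged bases, while the canonical transcript has 1556. With the latter length the level was 4.48 log2 CPM per kb. The antisense gene ARRDC1-AS1 (chromosome 9, 137615332 to 137618906) overlaps the end of ARRDC1 by 29 bases and had a mean level of 21.2 CPM. The libraries kept the strand, but the methods of the study do not state whether the counting used it.

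ARRDC3 (ENSG00000113369, chromosome 5, 91368631 to 91383317, minus strand) encodes an adaptor known in breast cancer cells for regulation of integrin beta 4. Its mean level was 4.32 log2 CPM, or 19.9 CPM. Per kb it had 2.00 log2 CPM, at percentile 42.9, just below the median of all genes. ARRDC2 (ENSG00000105643, chromosome 19, 18001132 to 18014102, plus strand), a less studied relative, had a mean level of 3.59 log2 CPM, or 12.1 CPM, and 1.38 log2 CPM per kb (2.60 CPM per kb), at percentile 32.1. ARRDC4 (ENSG00000140450, chromosome 15, 97960703 to 97973833, plus strand), the relative that shares regulation by glucose with TXNIP, had the lowest mean level of the members, with 2.86 log2 CPM, or 7.24 CPM. Per kb it had 0.83 log2 CPM (1.78 CPM per kb), at percentile 24.0. TXNIP was 32.7 times ARRDC4 per kb, and 14.6 times ARRDC3.

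**Figure D2:**
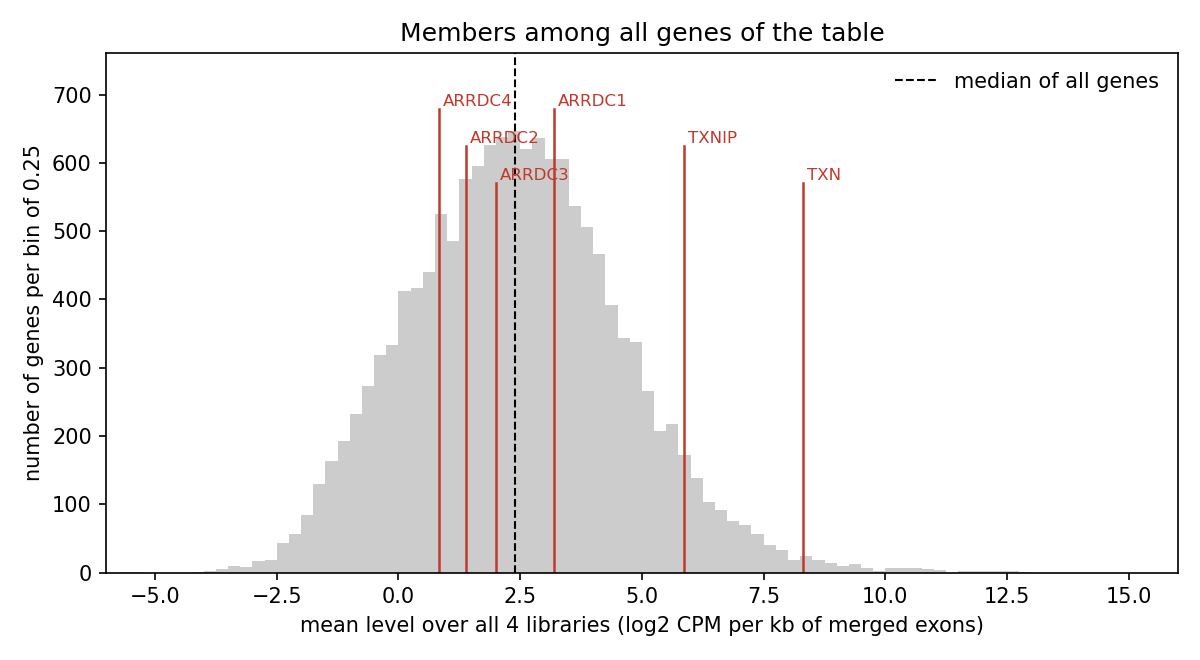
The histogram shows the authors' mean level of the genes in the table, over all 4 libraries and per kb of merged exons on a log2 scale. Red lines mark the members, and the dashed line is the median of all genes, 2.39; TXN (8.30), TXNIP (5.86) and ARRDC1 (3.19) lie above it, and ARRDC3, ARRDC2 and ARRDC4 lie below.

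The proteins were compared next, after translation of the canonical coding regions. The alpha-arrestins ranged from 391 residues in TXNIP to 433 in ARRDC1, and thioredoxin had 105. TXNIP was closest to ARRDC4, with 47.0% of 383 aligned residue pairs identical, followed by ARRDC3, with 169 of 384, and ARRDC2, with 153 of 384 (39.8%). ARRDC1 stood furthest from the rest, with 28.6% identity to TXNIP and at most 35.4% to any other member. ARRDC2 and ARRDC3 were 53.9% identical, and ARRDC3 and ARRDC4 were 53.2% identical. TXNIP and ARRDC4, its closest relative among these proteins, were the highest and the lowest of the alpha-arrestins in mRNA level per kb.

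**Figure D3:**
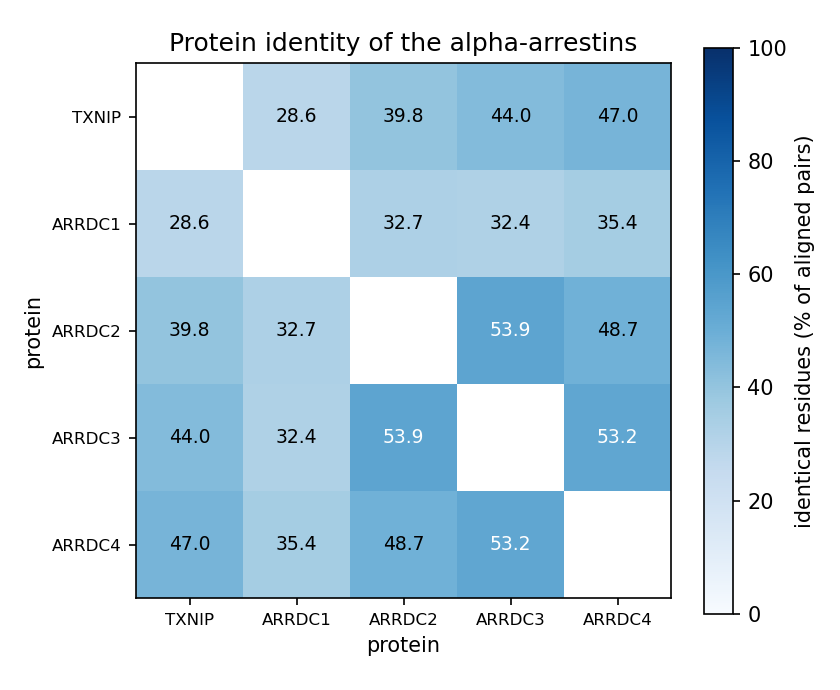
Each square gives the percentage of aligned residue pairs that are identical between a pair of alpha-arrestin proteins, from global alignments. ARRDC1 has the lowest values, from 28.6% to 35.4%, and ARRDC2, ARRDC3 and ARRDC4 have the highest among themselves, from 48.7% to 53.9%.

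PPxY motifs, in which x is any residue, bind the WW domains of NEDD4 family ubiquitin ligases. Each of the 5 alpha-arrestins held 2 of them near its C terminus. In TXNIP these were PPCY at residues 331 to 334 and PPTY at residues 375 to 378. ARRDC3 held PPSY at residues 346 to 349 and PPLY at residues 391 to 394, and ARRDC4 held PPNY at 350 to 353 and PPLY at 395 to 398. In ARRDC2 they were PPEY (339 to 342) and PPLY (385 to 388), and in ARRDC1 PPEY (402 to 405) and PPSY (415 to 418). Thioredoxin held none, but carried the active site CGPC, with the cysteine pair that is oxidised and reduced, at residues 32 to 35.

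The regulatory sequence at the start sites was read from RefSeq promoters (GRCh38.p14), from 250 bases before to 50 after the start of the canonical transcript. All 6 members matched such an entry. The carbohydrate response element bound by MondoA and MLX consists of a pair of E-box-like half-sites. A pair of CACGNG half-sites with 5 bases between them, searched on both strands, was found in 1 of the 6 members, TXNIP, and in 0.0570% of all 35116 promoters. The pattern was chosen with the TXNIP promoter in view, so its presence there is no finding. The pair starts 88 bases before the start site of TXNIP, on the minus strand at chr1:145996645-145996673, and is shown with the half-sites in capitals.

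TXNIP: gatgtgCACGAGggcagCACGAGcctccg

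The ARRDC4 promoter held no such pair but 1 CACGTG, the full E-box, which was in 7.26% of all promoters and in no other member. The search allowed only this half-site pattern and spacing within the promoter read. It therefore cannot show that ARRDC4 lacks a carbohydrate response element. The CCAAT box, bound by the factor NF-Y, was present on either strand in 5 of the 6 members, with 3 copies in ARRDC4, 2 in TXNIP and 1 each in ARRDC1, ARRDC2 and ARRDC3, compared with 34.6% of all promoters that held it. These matches describe letters and not binding.

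To place the members among genes known to act with them, the mean levels per kb of 5 lists were examined. These levels used merged exons only, and other lengths were not tried for the listed genes. The 14 listed genes of the thioredoxin system were all in the table, with a median of 4.50 log2 CPM per kb against 2.39 for all genes. Of these, 10 were above the median of all genes, 6 were above TXNIP and 0 were above TXN. TXNRD1, the cytosolic thioredoxin reductase, had 7.30 log2 CPM per kb, and PRDX1, a peroxidase that thioredoxin reduces, had 7.68. TXNRD2, the mitochondrial reductase, had 1.15, and its substrate TXN2, mitochondrial thioredoxin, had 5.11. The lowest of this list was TXNRD3, at 0.76.

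Ubiquitin ligases of the NEDD4 family bind PPxY motifs. The 9 listed genes were all in the table, with a median of 2.48 log2 CPM per kb, and 5 were above the median of all genes. SMURF2 was the highest, at 5.17, followed by ITCH, a known TXNIP ligase, at 3.25. NEDD4 had 2.37 log2 CPM per kb and NEDD4L had 1.76, and the lowest was HECW1, at -2.79. HECW1 had 1.01 log2 CPM before division by its 13935 merged bases, near the lowest levels in the table, which start at 0.56. None of these ligases was above TXNIP per kb, whereas ARRDC3, ARRDC2 and ARRDC4 were below the median of the list. SMURF2 was above TXNIP before division by length, with 8.03 against 7.71 log2 CPM.

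MLXIP and MLX, which encode MondoA and its partner, had 3.62 and 3.40 log2 CPM per kb, both above the median of all genes. MLXIPL was not among the genes in the table. Among arrestin-fold and sorting genes, 9 of 10 were in the table, with a median of 3.57 log2 CPM per kb. The beta-arrestin genes ARRB1 and ARRB2, whose products desensitise G protein-coupled receptors, had -0.05 and 1.49 log2 CPM per kb, each within or below the range of the ARRDC genes. TSG101, the partner of ARRDC1, had 4.10, and VPS26A, a retromer subunit with an arrestin fold, was the highest at 5.05. ARRDC5, the remaining alpha-arrestin, was not among the genes in the table.

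Of 8 genes examined for cargo and binding partners, 7 were in the table. SLC2A1, which encodes the glucose transporter GLUT1 that TXNIP internalises, had 6.26 log2 CPM per kb, which put it above TXNIP, unlike the other 6 genes. ITGB4, which encodes integrin beta 4, had 3.58, above ARRDC3 itself. SLC11A2, an iron transporter regulated by ARRDC1 and ARRDC4, had 1.69 log2 CPM per kb. DDIT4 and MAP3K5, for partner proteins of TXNIP and of thioredoxin, had 3.13 and 1.05. NLRP3, an inflammasome sensor reported to bind TXNIP, had 0.70 log2 CPM and -1.54 per kb, near the lowest levels listed in the table, which start at 0.56 log2 CPM.

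**Figure D4:**
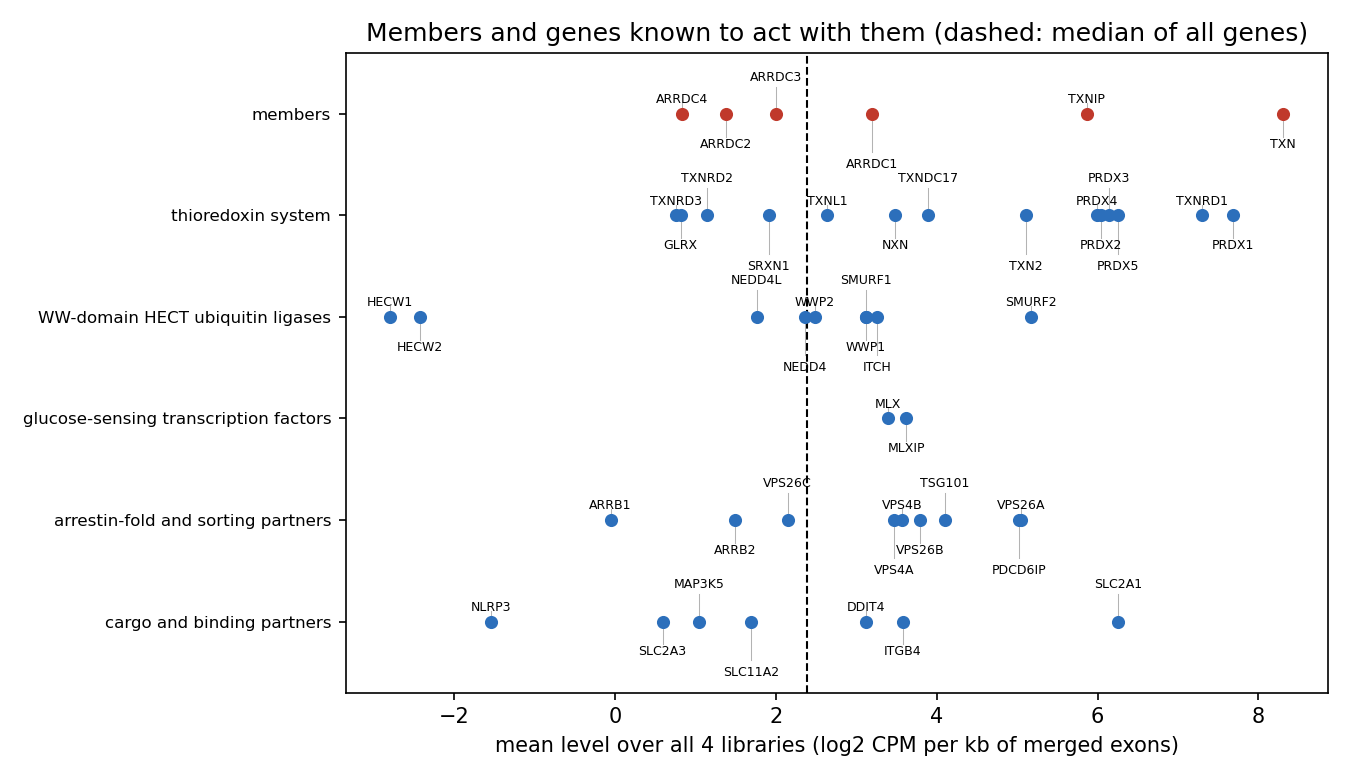
Points give the authors' mean level per kb (log2 CPM, over all 4 libraries) of the members, in red, and of the genes in 5 lists, in blue; the dashed line is the median of all genes. TXN is to the right of all genes shown, and SLC2A1, TXNRD1 and 5 peroxiredoxin genes are the other genes to the right of TXNIP.

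The cell type was checked against its markers. All 6 markers of a mesenchymal-like triple negative line were in the table, from EGFR at 4.65 to AXL at 8.65 log2 CPM per kb. VIM had 8.08 and CD44 had 7.25. ESR1 and PGR, the hormone receptor genes, were not among the rows used here. Of the 4 luminal or epithelial genes that were present, 2 lay above the median of all genes, 2.39 log2 CPM per kb. These were GATA3 at 2.72 and EPCAM at 2.40, while CDH1 had 1.08 and FOXA1 had 0.19. Of 4 markers of other cell types, 0 were among these rows.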

How the data were processed

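RNA of 4 samples, 2 per treatment, was sequenced by the authors as 75 bp paired-end reads from stranded, ribosome-depleted libraries. According to the methods of the study, reads were mapped to GRCh38.p13 and counted with rsubread. The submitters' processing notes name TopHat, HTSeq, DESeq and Cufflinks, so which tools made the deposited table is not clear. The authors' deposited table holds 1 logCPM value per gene, read from its name as a mean over all libraries. The scaling, prior count and filter on low counts are not given in the sources used here. A further 4 columns (log2 fold change, F statistic, p-value and adjusted p-value) hold the authors' own comparison of cordycepin with DMSO and were not used. The deposited table has 0 columns of values per sample, so depth per library is unknown and no test on sample values was possible.

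Gene IDs were matched to GENCODE release 44 (GRCh38), which held 13922 (99.7%) of 13957. Start and end were the same for 82.1% of matched genes and for all 6 members. The merged exon length equalled the length in the deposited table for 73.7% of matched genes and was within 10% of it for 88.4%. Ranks per kb rest on the GENCODE lengths. For levels per kb, CPM was divided by merged exon length in kb and then logged. Percentiles are shares of genes with a lower value. Genes that are not in the table are counted neither in the percentiles nor in the median of all genes. Proteins were aligned globally with BLOSUM62 (gap opening 10, extension 0.5). Both steps were tested on simulated data. Named genes were the 6 members and, from written lists, the lowest and highest genes and those whose known role touches a member. A result for 1 listed gene is not reported here. The members and lists were chosen with earlier results of these data known. Alternatives were other gene sets, lengths and alignment settings. Python 3.11.15, pandas 2.3.3, scipy 1.17.1, Biopython 1.88 and matplotlib 3.10.9 were used.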

Additional observations from a re-analysis of the deposited data

How the results depend on the processing

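No paired analysis was possible because no values per library are given, and so leaving out a replicate, other normalizations and other tools were not run. The mean levels carry no error, so differences between members cannot be weighed against replicate spread.

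By mean level not divided by length, the percentiles were 96.3 for TXN, 93.4 for TXNIP, 58.7 for ARRDC1, 45.6 for ARRDC3, 34.3 for ARRDC2 and 24.8 for ARRDC4. Per kb they were 99.1, 93.9, 64.5, 42.9, 32.1 and 24.0 in the same order. Among protein-coding genes alone they were 95.9, 92.6, 52.8, 38.3, 26.5 and 17.7. Among genes above the lowest 25% of mean levels they were 95.1, 91.2, 44.9, 27.4 and 12.4, and ARRDC4 was itself among the lowest 25%. Leaving out the lowest genes must lower the percentile of every gene that stays, so the last set is no check of the ranks. ARRDC1 was above the middle in the other rankings and below it, at 44.9, only in that set.

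With the canonical transcript length, the log2 CPM per kb was 8.76 for TXN, 6.18 for TXNIP, 4.48 for ARRDC1, 2.27 for ARRDC2 and 2.23 for ARRDC3. With the longest transcript it was 3.44 for ARRDC1 and 1.69 for ARRDC2, and as above for TXN (8.76), TXNIP (6.18) and ARRDC3 (2.23). The difference between TXN and TXNIP became 2.58 with either length. The ratio of TXNIP to the sum of the ARRDC genes, also recomputed after the data were seen, was 2.15 with canonical and 3.51 with longest transcripts, and its share of the alpha-arrestins was 68.3% and 77.8%. ARRDC4 has 1 transcript and did not move, and the lengths in the deposited table, an alternative chosen after the data were seen, were those of the merged exons for all 6 members.

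A gap opening of 5 raised the identity of ARRDC1 to TXNIP to 37.2%, to ARRDC2 to 44.1% and to ARRDC4 to 41.7%. The values of ARRDC1 stayed the lowest, but its 44.1% to ARRDC2 was close to the 44.4% between TXNIP and ARRDC2. Over the shorter protein the identity of ARRDC1 was 26.8% to ARRDC3 and 28.7% to ARRDC4. The other identities stayed within their 95% Wilson intervals, which treat aligned pairs as independent and do not measure the effect of alignment settings. With a gap opening of 5, TXNIP was 48.4% identical to ARRDC4 and 48.0% to ARRDC3, so these were nearly level. The 3' UTR lengths were the same with the longest 3' UTR of any protein-coding transcript.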
